A study of Mus musculus with 15 samples.

Results

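The 7 genes described here, Gpihbp1, Lipg, Cd36, Fabp5, Meox2, Tcf15 and Cyp4b1, belong to the machinery with which endothelial cells (ECs) take up and handle fatty acids, together with a cytochrome P450 that acts on fatty acids. They are 7 of the 44674 genes in the deposited count table, found by symbol, with 1 row each. They were chosen by their counts per 1000000 counts of the library (CPM) over the conditions of the study, so their levels below are a description and carry no test. The study sorted cells from primary mouse cultures and made bulk RNA-seq libraries from them, 15 in all. The cells labelled P0 Emcn+ and P0 Emcn- bone marrow endothelial cells (BMECs) were sorted, by surface endomucin, from unpassaged whole bone marrow (WBM) cultures as viable CD45-negative tdTomato+ cells, with 2 libraries each. Passaged Emcn- cultures gave 2 libraries for each of P1, P2 and P3 and a single one for P4. Cells from lung cultures, Emcn- according to the methods, and bone marrow mesenchymal stromal cells (BM MSC) had 2 each. The labels give the genotype as WT throughout. By the methods, the endothelial libraries came from adult Tie2-CreERT2;Rosa26-tdTomato mice given tamoxifen, so that tdTomato marks cells in which the Tie2 promoter had been active, and the BM MSC came from Osx-Cre;Rosa26-tdTomato mice, where the osteolineage promoter of Osx drives Cre. The BMEC and lung cultures were kept in EGM-2, an endothelial medium with serum, hydrocortisone and growth factors including VEGF, and the BM MSC in MesenCult medium, so BM MSC differ from the other groups in medium, Cre driver and sorted lineage at once.

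Capillary endothelium is where circulating triglyceride becomes available to tissues. GPIHBP1, an anchored protein of the capillary surface, picks up lipoprotein lipase made by neighbouring parenchymal or stromal cells and carries it to the lumen, where the enzyme releases fatty acids from lipoproteins. CD36 on the endothelial surface takes up the released fatty acids, and the cytosolic binding proteins FABP4 and FABP5 carry them. The transcription factors MEOX2 and TCF15, acting as a heterodimer, are known to drive Cd36 expression in heart endothelium. LIPG is endothelial lipase, a phospholipase that acts on high-density lipoprotein, and CYP4B1 is a monooxygenase that hydroxylates fatty acids and is best known from lung.

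Library totals ran from 9914620 to 39718807 counts, at which 3 counts amount to 0.303 to 0.0755 CPM, and this is the level that a gene with 0 counts could still have had. Intervals and limits of this kind cover counting error only. The labels mark 4 batches. In P0 Emcn+, in P0 Emcn- and in lung, replicate 1 was of batch d and replicate 2 of batch a, while replicate 1 of P1 to P3 and P4 were of batch b and replicate 2 of P1 to P3 and both BM MSC libraries of batch c. Batch and condition therefore cannot be told apart when passaged or BM MSC libraries are set against P0 or lung. By the methods replicates are independent cultures from different animals.

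The labelled cell types were checked against their defining markers. All 10 endothelial markers reached 1 CPM in both P0 Emcn+ libraries, with summed levels of 12680 and 10630 CPM. In the libraries labelled P0 Emcn- the same sum was 275 and 69.9 CPM, in lung 166 and 622 CPM, in BM MSC 42.7 and 362 CPM, and in the 7 passaged libraries 44.8 to 70.4 CPM. Cdh5, the cadherin of endothelial junctions, was at 6222 and 5118 CPM in the P0 Emcn+ libraries. P0 Emcn- replicate 1 had 119.5 CPM of it and replicate 2 had 6.35 CPM, and it was at 0.0564 to 2.33 CPM in the passaged libraries, where it was represented by 2 to 65 counts. Cdh5 was thus nearly absent from the libraries labelled P1 to P4, where Tek, the gene whose promoter drives the Cre, still had 14.9 to 40.3 CPM, Kdr 7.96 to 30.1 CPM and Pecam1 10.7 to 14.3 CPM. For Tek these values, and the 20.3 and 49.4 CPM of P0 Emcn-, lay above BM MSC (5.47 and 5.51 CPM) and lung (6.13 and 7.05 CPM). P0 Emcn+ had 168 and 125 CPM of Tek. Emcn, the gene of the sorted antigen, was at 631 and 798 CPM in the P0 Emcn+ libraries. The lung libraries had 32.6 and 125 CPM of it, more than the 12.7 and 2.52 CPM of P0 Emcn-. The 9 mesenchymal markers summed to 460 and 711 CPM in P0 Emcn+, whereas P0 Emcn- had 23670 and 18160, lung 13640 and 14830, and BM MSC 21050 and 15640 CPM. The libraries labelled P0 Emcn- thus lay at the level of BM MSC in both marker sums, though not in Tek, against their label of endothelial cells. The names P0 Emcn- and P1 to P4 are used below as labels only. In each comparison of P0 Emcn+ with another group, and for each gene below that differs there, endothelial and mesenchymal marker levels therefore differ as well, and their part in the result was not tested. In bulk libraries fewer cells of a type and less RNA per cell cannot be told apart.

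Upstream sequences of 3 members, Cyp4b1, Cd36 and Meox2, could be read from RefSeq (GRCm38.p6). They are shown because MEOX2 is a homeodomain factor and TCF15 a basic helix-loop-helix factor, whose classes bind TAATTA and CANNTG respectively. Each line gives the 250 bases before the RefSeq start, 5′ to 3′ on the gene's strand, with CANNTG (E-box) matches in capitals. The positions are chr4:115647722-115647971 (minus strand) for Cyp4b1, chr5:17835897-17836146 (minus strand) for Cd36 and chr12:37108290-37108539 (plus strand) for Meox2.
Cyp4b1: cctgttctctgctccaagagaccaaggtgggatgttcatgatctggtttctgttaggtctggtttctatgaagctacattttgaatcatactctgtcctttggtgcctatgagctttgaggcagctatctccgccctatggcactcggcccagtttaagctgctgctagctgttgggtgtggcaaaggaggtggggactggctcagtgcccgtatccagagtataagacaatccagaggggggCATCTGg
Cd36: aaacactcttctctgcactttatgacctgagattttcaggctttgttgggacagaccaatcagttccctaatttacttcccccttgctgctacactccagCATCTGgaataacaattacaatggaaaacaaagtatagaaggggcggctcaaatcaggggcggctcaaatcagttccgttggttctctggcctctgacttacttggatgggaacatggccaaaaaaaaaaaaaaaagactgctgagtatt
Meox2: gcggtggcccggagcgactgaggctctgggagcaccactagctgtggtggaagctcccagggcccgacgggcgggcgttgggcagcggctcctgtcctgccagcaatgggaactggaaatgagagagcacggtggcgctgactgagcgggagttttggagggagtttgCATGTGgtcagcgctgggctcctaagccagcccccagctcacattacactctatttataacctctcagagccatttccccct
Each window held 1 E-box, CATCTG starting 7 bases before the start of Cyp4b1, CATCTG at 150 bases for Cd36 and CATGTG at 82 bases for Meox2. Searched on both strands, CANNTG occurred in 66.2% of the 32851 promoters of the same length, so a match is common. The homeodomain letters TAATTA, held by 4.84% of all promoters, were in none of the 3 windows. The TATA letters TATAAA (12.4% of promoters) were found only upstream of Meox2, on the opposite strand 29 bases before the start. The GC box GGGCGG (32.7% of promoters) occurred once upstream of Cyp4b1 and of Meox2 and 2 times upstream of Cd36, and the direct repeat element bound by PPAR receptors, searched in its consensus form (0.0335% of promoters), in none. The Cd36 window lies inside the GENCODE M21 gene body, in none of its exons, while 2 bases of the Cyp4b1 window fall in an annotated exon of the gene. A match describes letters in a window and was not linked to binding.

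By GENCODE M21 (GRCm38) the gene bodies are chr15:75596628-75599481 for Gpihbp1 (ENSMUSG00000022579), chr18:74939322-74961263 for Lipg (ENSMUSG00000053846), chr5:17781690-17888801 for Cd36 (ENSMUSG00000002944) and chr3:10012548-10016607 for Fabp5 (ENSMUSG00000027533). Meox2 (ENSMUSG00000036144) occupies chr12:37108540-37179534, Tcf15 (ENSMUSG00000068079) chr2:152143561-152149097 and Cyp4b1 (ENSMUSG00000028713) chr4:115624725-115647723. The counts are per gene, summed over transcripts. Of the 7 members, 6 passed the filter on low counts that precedes the tests below, and Tcf15 did not.

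**Figure D1:**
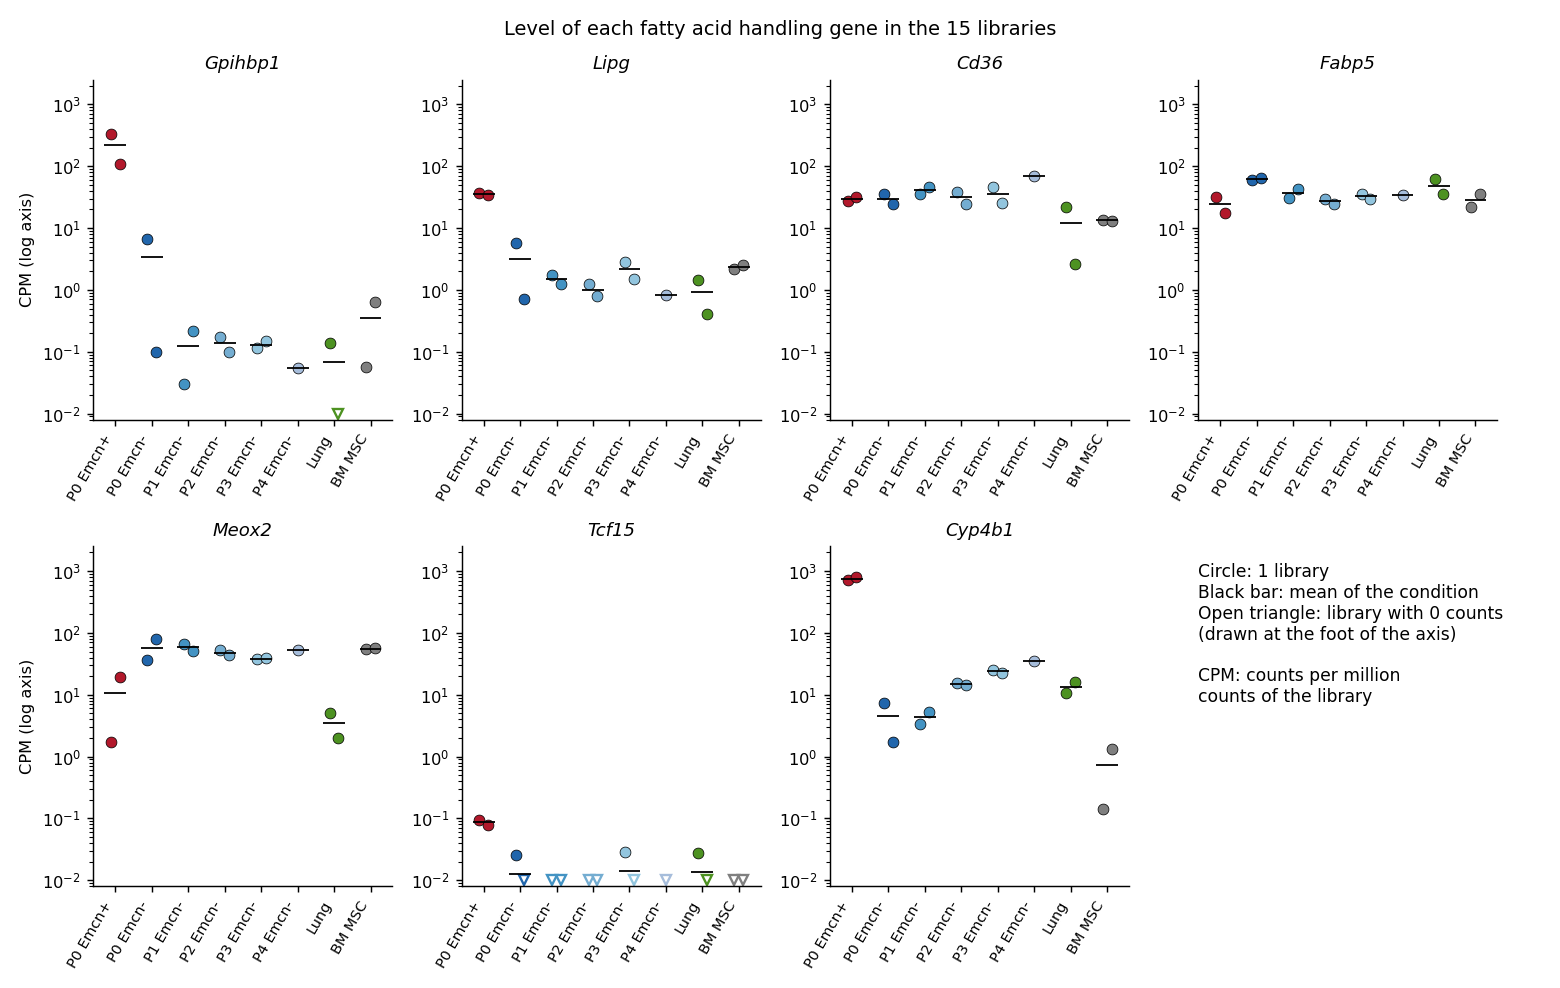
CPM of each of the 7 genes (log axis) in the 15 libraries by condition, with 1 circle per library, a black bar at the mean and open triangles for libraries with 0 counts. Gpihbp1, Lipg and Cyp4b1 stand highest in both P0 Emcn+ libraries, while Cd36 and Fabp5 are of like level in most conditions and Meox2 is lowest in P0 Emcn+ and lung.

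Gpihbp1, the luminal platform for lipoprotein lipase, was far higher in P0 Emcn+ BMECs than in any other condition. It stood at 328 and 109 CPM in P0 Emcn+ replicates 1 and 2 (10352 and 2821 counts). P0 Emcn- had 6.70 CPM in replicate 1 and 0.101 CPM, a single count, in replicate 2. Both P0 Emcn+ libraries thus lay above both P0 Emcn- libraries, and the latter differed from each other by a far larger ratio than the former. The passaged libraries held 1 to 6 counts each, or 0.0298 and 0.215 CPM at P1, 0.175 and 0.0994 CPM at P2, 0.113 and 0.148 CPM at P3 and 0.0550 CPM at P4. Lung had 5 counts (0.138 CPM) and 0 counts, which allows up to 0.138 CPM, and BM MSC had 0.0561 and 0.639 CPM. Below P0 Emcn+, every neighbouring pair in the order of the means overlapped. The P0 Emcn+ mean of 218.5 ± 155 CPM and the P0 Emcn- mean of 3.40 ± 4.66 CPM (SD, n = 2 each, as in all groups but P4) gave a ratio of 64.3. Within batch d the ratio was 49.0, with an exact 95% counting interval of 43.4 to 55.5. Within batch a it was 1081, with an interval of 194 to 42710, since it rests on 1 count. P0 Emcn+ exceeded lung 3166-fold, lung holding 5 counts in all.

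The 2 P0 Emcn- libraries also differed in Cdh5 in the same direction as in Gpihbp1. Set against Cdh5, Gpihbp1 amounted to 52.7 and 21.3 counts per 1000 Cdh5 counts in P0 Emcn+ and to 56.1 per 1000 in P0 Emcn- replicate 1. Per Cdh5 transcript that P0 Emcn- library therefore held as much Gpihbp1 as the P0 Emcn+ libraries did, and replicate 2 had 1 count of Gpihbp1 beside 63 of Cdh5. Lung replicate 2, with 3714 Cdh5 counts, had 0 Gpihbp1 counts and replicate 1 had 3.49 per 1000, and BM MSC had 7.14 and 4.10 per 1000. The lung and BM MSC values lay below those of P0 Emcn+ and of P0 Emcn- replicate 1 on this scale too, and none of these ratios was tested.

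Lipg, endothelial lipase, was likewise highest in P0 Emcn+ BMECs, at 36.6 and 34.2 CPM. P0 Emcn- had 5.69 and 0.706 CPM, P1 1.73 and 1.26 CPM, P2 1.23 and 0.795 CPM, P3 2.82 and 1.48 CPM and P4 0.825 CPM. Lung had 1.44 and 0.415 CPM and BM MSC 2.22 and 2.50 CPM. The P0 Emcn+ libraries agreed closely and lay above every other library. Among the others neighbouring means overlapped in range, apart from P1 over P2. The ratio of P0 Emcn+ (35.4 ± 1.70 CPM) to P0 Emcn- (3.20 ± 3.52 CPM) was 11.1, being 48.4 within batch a and 6.43 within batch d. P0 Emcn+ stood 38.2-fold above lung, 82.3-fold in batch a and 25.5-fold in batch d. Lung against P0 Emcn- had a log2 ratio of -1.79 with overlapping ranges, which turned to 0.39 without P0 Emcn- replicate 1. Set against Cdh5, Lipg amounted to 5.88 and 6.67 counts per 1000 Cdh5 counts in P0 Emcn+, 47.6 and 111 in P0 Emcn-, and 1526 and 538.5 at P1, where Cdh5 had 38 and 65 counts.

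Cyp4b1, the fatty acid hydroxylase, was far higher in P0 Emcn+ BMECs than elsewhere, and its level in the passaged cultures differed from passage to passage. P0 Emcn+ BMECs had 705 and 808 CPM, against 7.33 and 1.71 CPM in P0 Emcn-. The ranges were far apart, with a ratio of 167 between the means (756 ± 73.1 and 4.52 ± 3.97 CPM). It was 471 within batch a and 96.2 within batch d, so both batches placed P0 Emcn+ higher. Per 1000 Cdh5 counts Cyp4b1 had 113 and 158 in P0 Emcn+, 61.3 and 270 in P0 Emcn-, 274 and 94.2 in lung and 17.9 and 8.39 in BM MSC, where P0 Emcn+, P0 Emcn- and lung overlapped, P0 Emcn- replicate 2 holding only 17 counts of Cyp4b1 and 63 of Cdh5. Per 1000 counts of the 10 endothelial markers it had 55.6 and 76.0 in P0 Emcn+ and 26.7 and 24.5 in P0 Emcn-, with no overlap, 65.4 and 25.9 in lung and 3.29 and 3.61 in BM MSC. The order of the P0 groups thus depended on the endothelial scale used, and BM MSC was lowest on both. Lung, an organ where the gene is known to be abundant, had 10.8 and 16.1 CPM in these cultures. This lay above both P0 Emcn- libraries, 2.98-fold in the means, 9.41-fold within batch a and 1.48-fold within batch d. The log2 ratio ran from 0.88 to 2.98 when 1 library was left out, lowest without P0 Emcn- replicate 2 and highest without replicate 1. Lung lay 56.1-fold below P0 Emcn+. BM MSC had 0.140 and 1.31 CPM, the lowest of all conditions.

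Over the passages of the Emcn- cultures Cyp4b1 stood higher at each later passage in both batches. Batch b went from 3.39 CPM at P1 through 15.2 CPM and 24.9 CPM to 35.0 CPM at P4. Batch c had 5.31 CPM at P1, 14.3 at P2 and 22.6 at P3. The 2 libraries of a passage lay close together and no 2 passages overlapped in range, with P3 over P1 at 5.47-fold in the means, 7.36 within batch b and 4.26 within batch c. P1 (4.35 ± 1.36 CPM) and P0 Emcn- (4.52 ± 3.97 CPM) overlapped. The endothelial markers did not share a direction over the passages. Cdh5 went from 1.13 and 2.33 CPM at P1 to 0.0564 and 0.185 CPM at P3 and 0.220 CPM at P4, and at P3 replicate 1 the library held 884 counts of Cyp4b1 beside 2 of Cdh5. Kdr, a VEGF receptor, was higher at each step from P1 to P3 in both batches, at 12.3, 21.4 and 30.1 CPM in batch b and 7.96, 10.5 and 15.5 CPM in batch c. Tek was lower at each step from P1 to P3, going from 40.3 to 15.6 CPM in batch b and from 30.1 to 14.9 CPM in batch c, while Pecam1 stayed between 10.7 and 14.3 CPM. At P4, in batch b, both turned back, with Kdr at 23.3 CPM and Tek at 19.1 CPM. Emcn went from 2.35 to 3.39 CPM in batch b and from 1.47 to 0.925 CPM in batch c. In the same libraries the 10 macrophage markers summed to 79.6 and 257 CPM at P1, to 38.9 and 42.4 CPM one passage later, to 16.4 and 11.4 CPM at P3 and to 9.18 CPM at P4, also lower at later passages. The 9 mesenchymal markers summed to 6898, 4779 and 4345 CPM from P1 to P3 in batch b and 7784, 6027 and 5564 CPM in batch c, lower at each step, with 5331 CPM at P4, and the 5 adipocyte markers to 42.6 to 108 CPM without a shared order over passages. Which cells carried the Cyp4b1 counts of the passaged libraries was not tested.

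**Figure D2:**
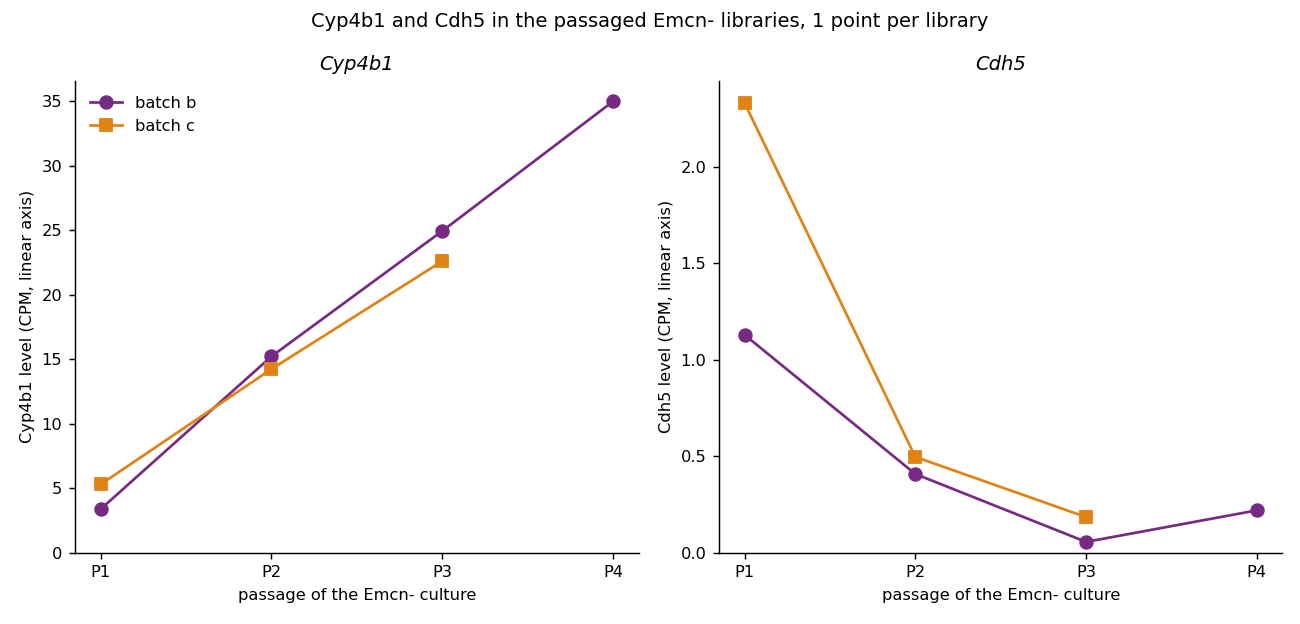
Cyp4b1 (left) and Cdh5 (right) in CPM on linear axes in the passaged Emcn- libraries, 1 point per library, with lines joining libraries of the same batch. Cyp4b1 goes from 3.39 and 5.31 CPM at P1 to 24.9 and 22.6 CPM at P3, while Cdh5 goes from 1.13 and 2.33 CPM to 0.0564 and 0.185 CPM, a direction that Kdr, another endothelial marker not plotted here, did not share.

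**Figure D3:**
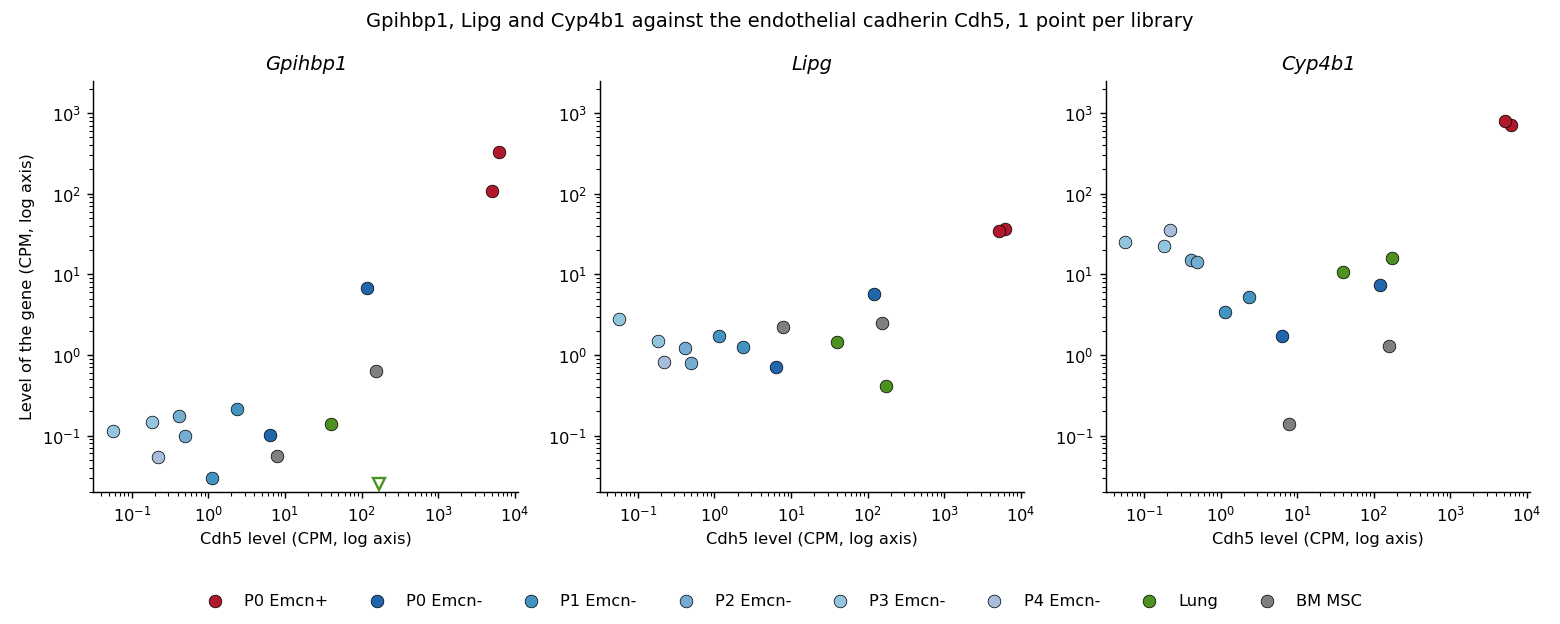
Gpihbp1, Lipg and Cyp4b1 (CPM, log axis) against Cdh5 (CPM, log axis), 1 point per library, the open triangle marking lung replicate 2 with 0 Gpihbp1 counts. The 2 P0 Emcn+ libraries stand at the upper right in all 3 panels, and the passaged libraries stand at the left with Cyp4b1 of 3.39 to 35.0 CPM.

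Cd36, the fatty acid receptor, did not separate the P0 populations. P0 Emcn+ had 27.3 and 31.7 CPM and P0 Emcn- 35.2 and 24.2 CPM, so the ranges overlapped, and the means of 29.5 ± 3.09 and 29.7 ± 7.81 CPM were nearly equal. The 2 batches went in opposite directions, with a log2 ratio of 0.39 in batch a and -0.37 in batch d. The passaged libraries had 35.5 and 46.1 CPM at P1, 37.9 and 24.6 CPM at P2, 46.3 and 25.5 CPM at P3 and 68.7 CPM at P4, which was the highest of the 15. The lung libraries differed from each other, replicate 1 having 21.6 CPM and replicate 2 only 2.63 CPM, and BM MSC had 13.7 and 13.2 CPM. Lung and BM MSC lay below all P0 libraries, 2.44-fold below P0 Emcn+ and 2.21-fold below P0 Emcn- respectively. In the order of the 8 means P4 stood apart from P1 and P0 Emcn+ from BM MSC, and the other neighbours overlapped. The lung ratio to P0 Emcn+ rested on replicate 2, being 12.1 in batch a and 1.26 in batch d. Cd36 is also expressed by macrophages and adipocytes. Of the 10 macrophage markers, 9 or 10 reached 1 CPM in each P0 library, with sums of 641 and 594 CPM for P0 Emcn+ and of 252 and 312 CPM for P0 Emcn-, against 20.8 and 18.9 CPM in lung and 17.4 and 30.3 CPM in BM MSC. In the passaged libraries the macrophage sum went from 79.6 and 257 CPM at P1 to 9.18 CPM at P4, where Cd36 was highest. The 5 adipocyte markers summed to 7.57 and 2.78 CPM in P0 Emcn+ and to 80.9 and 82.6 CPM in P0 Emcn-. From P1 to P4 in batch b they summed to 63.1, 42.6, 43.7 and 84.2 CPM. In batch c they summed to 108, 52.4 and 47.2 CPM from P1 to P3. Lung had 13.3 and 2.03 CPM of them and BM MSC 56.9 and 79.4 CPM. The part of these cells in the Cd36 values was not tested.

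Fabp5, a cytosolic fatty acid binding protein, was lower in the libraries labelled P0 Emcn+ than in those labelled P0 Emcn-. P0 Emcn+ had 31.9 and 17.4 CPM and P0 Emcn- 59.6 and 63.7 CPM. The ranges were apart, with means of 24.6 ± 10.2 and 61.7 ± 2.90 CPM and a ratio of 2.50, which was 3.66 in batch a and 1.87 in batch d. Lung had 61.8 and 35.3 CPM, overlapping P0 Emcn- and above P0 Emcn+. The passaged libraries lay below P0 Emcn-, at 30.2 and 42.8 CPM (P1), 29.7 and 24.3 CPM (P2), 34.9 and 29.9 CPM (P3) and 34.1 CPM (P4), and BM MSC had 21.7 and 35.3 CPM. In the order of the 8 means every neighbouring pair overlapped. Processed pseudogenes of Fabp5 could take or give reads in the quantification, which was not tested. Fabp4, a close relative of Fabp5 and a target gene of PPARγ, did not show this difference. The P0 Emcn+ libraries had 523 and 361 CPM of it and the P0 Emcn- libraries 331 and 367 CPM, with a log2 fold change of 0.38 (SE 0.36) that did not pass edgeR's test (adjusted p = 0.469). Fabp4 was lower in BM MSC than in P0 Emcn-, at 77.4 and 105 CPM (log2 fold change -1.85, SE 0.37, adjusted p = 0.00392 by edgeR).

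Meox2, a homeobox factor, was low in P0 Emcn+ and in lung. The 2 P0 Emcn+ libraries had 1.71 and 19.4 CPM and lung 5.11 and 1.98 CPM. P0 Emcn- had 36.0 and 78.7 CPM, P1 65.6 and 50.9 CPM, P2 52.7 and 43.3 CPM, P3 37.3 and 39.3 CPM, P4 53.9 CPM and BM MSC 54.7 and 56.3 CPM. All P0 Emcn+ and lung libraries thus lay below all the others, and P1, P0 Emcn- and BM MSC overlapped in turn at the top of the order. P0 Emcn- exceeded P0 Emcn+ 5.44-fold in the means (SD of 30.2 CPM in P0 Emcn-), 4.06-fold in batch a and 21.1-fold in batch d, and exceeded lung 16.2-fold, 39.7-fold in batch a and 7.05-fold in batch d. The log2 ratio of lung to P0 Emcn- ran from -4.85 to -3.35 when 1 library was left out. BM MSC and P0 Emcn- differed little, with means of 55.5 and 57.4 CPM. P0 Emcn+ and lung overlapped, and the direction between them turned with the batch, lung being 9.77-fold lower in batch a and 2.98-fold higher in batch d. Without P0 Emcn+ replicate 2 the log2 ratio of lung to P0 Emcn+ was 1.05, against -1.57 with it. The summed mesenchymal markers were also low in P0 Emcn+, but not in lung, at 13640 and 14830 CPM.

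Tcf15, the partner of MEOX2, was at the limit of detection. It had 3 and 2 counts in the P0 Emcn+ libraries, 1 count each in P0 Emcn- replicate 1, P3 replicate 1 and lung replicate 1, and 0 in the other 10. The highest value was 0.0951 CPM. Its differences were not detectable at this depth, and no fold is given. Meox1, the closest relative of Meox2, was also low, with 0.0828 to 6.46 CPM over the libraries. It was lower in lung (0.0828 and 0.277 CPM) than in P0 Emcn- (3.25 and 6.46 CPM), with a log2 fold change of -4.75 (SE 0.87, edgeR adjusted p = 0.0128).

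The members fell into different patterns over the 15 libraries, described here by Pearson's r of log2(CPM + 1), where the points share conditions and the 2 P0 Emcn+ libraries weigh heavily. Gpihbp1 and Lipg followed each other (r = 0.96), Cyp4b1 followed both less closely (0.80 and 0.74), and Cyp4b1 and Meox2 went in opposite directions (-0.55). Cd36 and Fabp5 followed neither each other (0.04) nor Gpihbp1 (0.11 and -0.26). Among all genes passing the filter, the 3 most like Gpihbp1 were Kcne3 (0.996), Adgrg3 (0.993) and Csf2rb (0.992), a cytokine receptor subunit. Those most like Lipg were Spop (0.966), Apold1 (0.965) and Gpihbp1 itself. For Cyp4b1 they were Ets1 (0.974), a transcription factor of endothelial and lymphoid cells, Fam171a1 (0.968) and Slc16a13 (0.967). Meox2 was followed by Hoxc10 (0.916), a homeobox gene of posterior and limb identity, Gsdme (0.911) and Plaat3 (0.907). Likeness was weaker for Cd36, with Fam102b (0.861), Dnajc12 (0.788) and Coro2b (0.764), and for Fabp5, with Armt1 (0.906), Cinp (0.875) and Gm29101 (0.862).

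The rest of the pathway was covered by 92 genes in 7 lists that leave out the members: lipolysis and lipoprotein uptake, fatty acid binding and transport, acyl-CoA synthetases, lipid droplets and triglyceride turnover, beta-oxidation, transcription factors of lipid use, and the CYP4 family with its reductase. Of these, 74 passed the filter on low counts and 18 did not, among them 11 CYP4 genes. A gene was called when edgeR's quasi-likelihood test, run over 19401 genes, gave a log2 fold change beyond 1.5 in either direction with an adjusted p (Benjamini-Hochberg) under 0.05. Of the 6 comparisons, 4 share the P0 Emcn- libraries as their reference, and lung against P0 Emcn+ shares libraries with 2 of those 4, so that the comparisons are not independent.

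Between P0 Emcn+ and P0 Emcn-, which asks how the 2 sorted marrow populations differ, 22 of the 74 pathway genes were called (29.7%), 4 higher and 18 lower in P0 Emcn+. Over all genes tested 19.2% were called, 7.79% higher and 11.4% lower. The median log2 fold change of the 74 was -0.51, against -0.06 over all genes. Lpl, lipoprotein lipase, the enzyme that GPIHBP1 binds, had 24.6 and 23.7 CPM after the Emcn+ sort and 1165 and 1863 CPM after the Emcn- sort. The ranges were far apart, with a log2 fold change of -5.94 (SE 0.37, adjusted p = 3.17e-06). Gpihbp1 and Lpl thus lay at opposite ends of the sort. Lrp1, a receptor that clears lipoprotein remnants, was also lower in P0 Emcn+, with 179 ± 9.59 against 6281 ± 1120 CPM (log2 fold change -5.10, SE 0.31, adjusted p = 2.79e-06). G0s2, an inhibitor of triglyceride lipase, stood at 0.383 ± 0.00438 against 14.4 ± 0.840 CPM (log2 fold change -5.19, SE 0.22, adjusted p = 4.48e-07).

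The genes called higher in P0 Emcn+ were Scarb1, Angptl4, Mgll and Acsl6. Scarb1, which encodes SR-BI, the receptor for high-density lipoprotein, stood at 171 and 184 CPM in P0 Emcn+, against 24.3 and 7.77 CPM in P0 Emcn-. The log2 fold change was 3.47 (SE 0.41, adjusted p = 0.000137). Angptl4, a secreted inhibitor of lipoprotein lipase, had 232 and 359 against 79.5 and 59.5 CPM (log2 fold change 2.12, SE 0.22, adjusted p = 6.85e-05), and Mgll, monoglyceride lipase, 32.5 and 66.6 against 6.87 and 2.22 CPM (log2 fold change 3.41, SE 0.52, adjusted p = 0.000661). Acsl6, an acyl-CoA synthetase, was named after its value was seen and had a mean of 3.77 CPM in P0 Emcn+. It was no longer called once P0 Emcn+ replicate 2, or else P0 Emcn- replicate 1, was left out.

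By list, 5 of 8 tested genes of lipolysis and lipoprotein uptake were called, 2 higher and 3 lower. Lipid droplets and triglyceride turnover had 1 higher and 6 lower of 13, with the droplet coats Plin1 and Plin4 among the lower. Transcription factors had 0 higher and 4 lower of 10, namely Nr1h3, Ppara, Ppargc1a and Ppargc1b, the last of which lost its call under the same omissions as Acsl6, and fatty acid binding and transport had 0 higher and 3 lower of 9. Beta-oxidation had 2 lower of 20, and 1 of 5 acyl-CoA synthetases was higher. Of the 9 tested genes of the CYP4 list, the relatives of Cyp4b1 and their reductase, 0 were called by edgeR or by DESeq2, and 4 had an unadjusted p under 0.05 in each. Cyp4v3, for example, had a mean of 28.6 CPM against 44.4 (log2 fold change -0.59), and Cyp4f16 of 28.0 CPM against 20.9 (0.45), both picked after their values were seen. Pparg, the receptor that drives Fabp4 and a gene picked after its values were seen, had 46.8 ± 8.47 and 32.8 ± 0.820 CPM and did not pass (adjusted p = 0.231). Of the adipocyte markers, Adipoq stood at 5.99 and 1.58 CPM in P0 Emcn+, against 41.5 and 54.3 CPM in P0 Emcn-, the sum of the 5 markers being 7.57 and 2.78 against 80.9 and 82.6 CPM. Lep had 0 counts in the 4 libraries. Plin1 and Cidec are in both lists. Which share of the differences in droplet genes goes with these markers, or with the mesenchymal ones, was not tested.

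**Figure D4:**
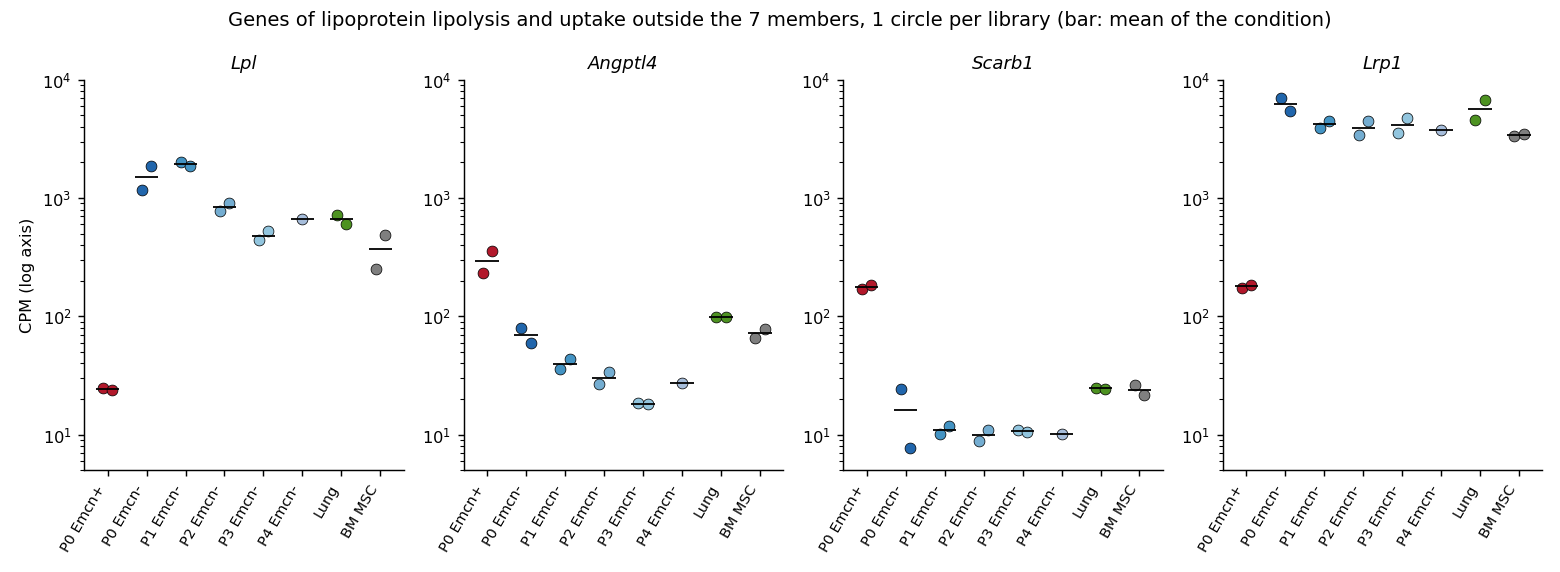
Lpl, Angptl4, Scarb1 and Lrp1 in CPM (log axis) in the 15 libraries by condition, 1 circle per library with a bar at the mean. Lpl and Lrp1 are lowest in both P0 Emcn+ libraries (24.6 and 23.7 CPM for Lpl), where Angptl4 and Scarb1 are highest.

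Lung and P0 Emcn- libraries differ in organ of origin, and also in summed macrophage markers, at 20.8 and 18.9 CPM in lung against 252 and 312 CPM. Emcn differed too, at 32.6 and 125 against 12.7 and 2.52 CPM, and the part of these differences was not tested. Between these groups 4 pathway genes of 74 were called (5.41%), all lower in lung, against 3.83% of all genes, 2.13% higher and 1.7% lower. The median log2 fold change was -0.07 for the 74 and 0.0 over all genes. The direction depended on 1 library, since without P0 Emcn- replicate 1 the comparison gave 2 higher and 2 lower. The 4 were Plin1, Cidec and Dgat2 of the droplet list and Meox1. Dgat2, which makes triglyceride, had 3.45 and 1.98 CPM in lung, those of P0 Emcn- having 16.2 and 7.16 CPM (log2 fold change -2.04, SE 0.39, adjusted p = 0.0155). The call was lost without P0 Emcn- replicate 1 or without lung replicate 2. Plin1 had 2.90 and 0.184 against 23.7 and 10.8 CPM (log2 fold change -3.35, SE 0.83, adjusted p = 0.0459) and was called in only 4 of the 15 fits that leave out 1 library. The adipocyte markers, which include Plin1 and Cidec, summed to 13.3 and 2.03 CPM in lung. Cidec, named after its value was seen, kept its call in all 15, and Meox1 lost it without lung replicate 1. Lpl had 716 and 608 CPM in lung and did not pass against P0 Emcn- (adjusted p = 0.0633).

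Against P0 Emcn+ BMECs, lung had 13 pathway genes higher and 7 lower of 74 (27.0%), where 21.1% of all genes were called, 12.6% higher and 8.48% lower. The median was 0.39 for the 74 and 0.06 over all genes on the log2 scale. Among the higher genes was Lpl, with a log2 fold change of 4.81 (SE 0.35, adjusted p = 7.77e-06). G0s2, at 36.7 and 32.0 CPM in lung, had the largest log2 fold change among the genes with at least 10 CPM in the higher group (6.50, SE 0.23, adjusted p = 1.7e-07), followed by Plin4 (5.02, SE 0.25, adjusted p = 1.08e-06) and Lrp1 (5.00, SE 0.31, adjusted p = 3.31e-06). The lower genes included Mgll, at 2.29 and 2.35 CPM in lung (log2 fold change -4.38, SE 0.55, adjusted p = 0.000181), Scarb1 (-2.81, SE 0.40, adjusted p = 0.000392) and Pnpla2, adipose triglyceride lipase (-2.06, SE 0.19, adjusted p = 3.03e-05). Lipc, hepatic lipase, a relative of Lipg and Lpl, was also called lower (log2 fold change -3.96, SE 1.06, adjusted p = 0.0146), although it did not exceed 0.348 CPM in any library and the call was lost without lung replicate 2. Por, the reductase that supplies electrons to cytochrome P450 enzymes such as CYP4B1 and a gene named after its value was seen, was higher in lung, with 244 ± 18.2 against 57.2 ± 2.27 CPM (log2 fold change 2.12, SE 0.27, adjusted p = 0.0002).

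BM MSC differed from the P0 Emcn- libraries in 12 of 74 pathway genes (16.2%), 2 higher and 10 lower, against 18.7% of all genes, 11.3% higher and 7.45% lower. Their median log2 fold change was -0.26, with 0.01 over all genes. The 2 higher were Mgll, at 35.8 and 20.6 CPM against 6.87 and 2.22 CPM (log2 fold change 2.66, SE 0.50, adjusted p = 0.00311), and Cyp4f14, named after its value was seen, which had a mean of 1.72 CPM. The Cyp4f14 call was lost without P0 Emcn- replicate 1 or 2 or BM MSC replicate 1, and with the replicate block (adjusted p = 0.0771). Of the 10 lower genes 6 were of the lipolysis and transport lists, 3 were transcription factors and 1 was of the droplet list. Nr1h3, which encodes the sterol sensor LXRα, had 4.41 and 6.30 CPM against 45.2 and 35.2 CPM (log2 fold change -2.83, SE 0.22, adjusted p = 1.94e-05). Vldlr, a receptor for triglyceride-rich lipoproteins, had 57.3 and 42.6 CPM against 247 and 287 CPM (-2.32, SE 0.25, adjusted p = 0.000152), and Lpl had 250 and 489 CPM (-1.95, SE 0.31, adjusted p = 0.00125). Of the 9 tested genes of fatty acid binding and transport 4 were lower, among them Fabp4. Cdh5 was 7.86 and 156 CPM in the 2 BM MSC libraries and the summed endothelial markers 42.7 and 362 CPM, so the libraries differ in endothelial markers.

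At the first passage, P1 against P0 Emcn-, 1 pathway gene was higher and 4 lower of 74 (6.76%), against 8.84% of all genes, 5.77% higher and 3.07% lower, the medians being -0.03 for the 74 and 0.02 over all genes (log2). Without the fold limit 11 were higher and 8 lower of 74, where 3387 of all 19401 genes passed. Plin4, a perilipin of lipid droplets, rose from 169 and 155 CPM to 522 and 470 CPM (log2 fold change 1.77, SE 0.22, adjusted p = 0.000668) and passed in all 15 fits that leave out 1 library. Among the lower genes Mfsd2a, Slc27a6 and Meox1 had means under 10 CPM in both groups and were called in 12, 6 and 7 of the 15 fits respectively, the first 2 being named after their values were seen. Without P0 Emcn- replicate 1, P1 replicate 1 or P1 replicate 2, only 1 pathway gene was called in each case. Without 1 of the P2 or P3 libraries 3 were.

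P1 and P3 share their batches, but the main edgeR fit had no batch term. From P1 to P3 it called 1 pathway gene of 74 (1.35%), against 0.222% of all genes, 0.0773% higher and 0.144% lower. The called gene was Lpl, which fell from 2011 and 1853 CPM at P1 through 774 and 902 CPM at P2 to 440 and 522 CPM at P3 (log2 fold change -1.97, SE 0.31, adjusted p = 0.0385). Both batches gave lower values at each step from P1 to P3, and P4 had 662 CPM. Cyp4b1 and Lpl thus went in opposite directions between these passages. The summed macrophage, mesenchymal and adipocyte markers were also lower at P3 than at P1 in each batch. Their part in the Lpl values was not tested. The call was lost in 10 of the 15 fits that leave out 1 library, namely each fit without a P0 Emcn+, P1, P2, P3 or lung library. With a replicate block 2 pathway genes were called, Lpl (adjusted p = 0.0432) and Cyp4a12b (adjusted p = 0.0335), the latter named after its value was seen and with a mean of 1.18 CPM at P3.

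**Figure D5:**
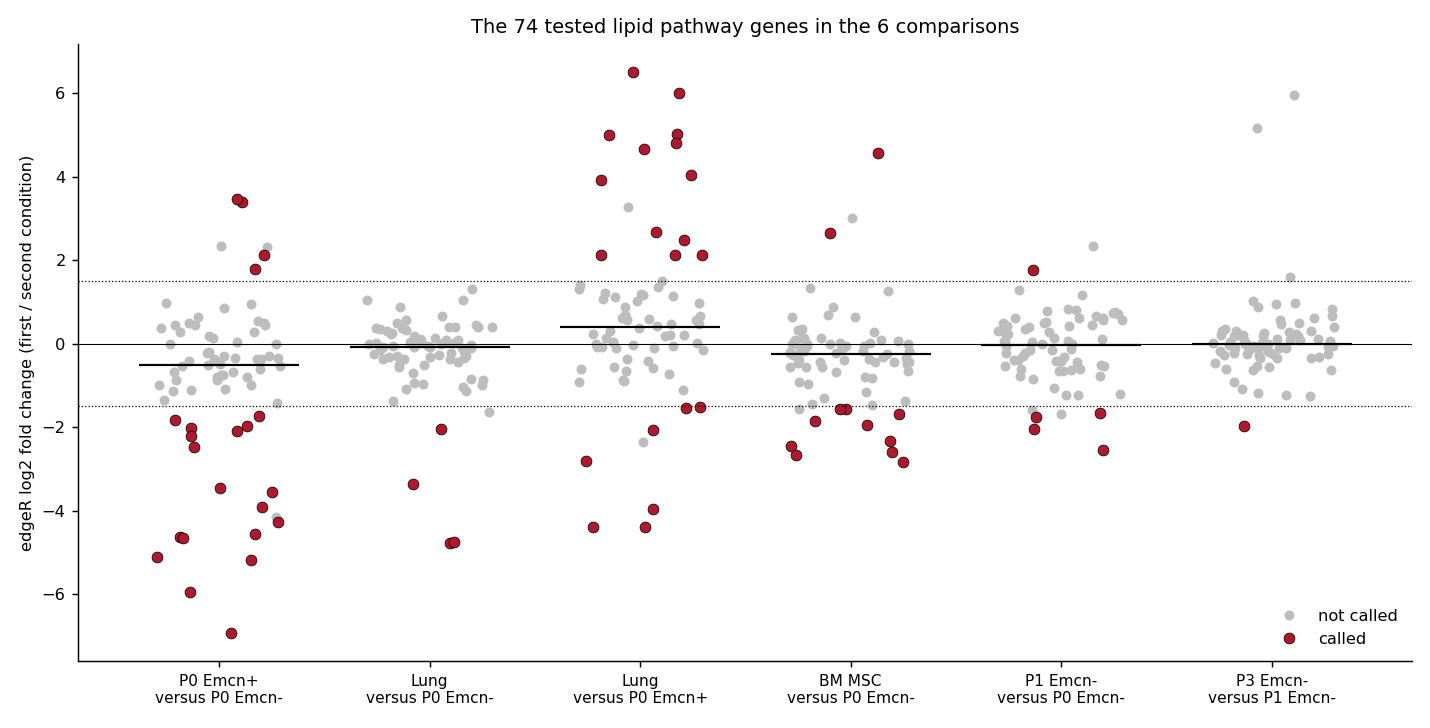
edgeR log2 fold change (first over second condition) of the 74 tested pathway genes in each of the 6 comparisons, with called genes in red, a bar at the median and dotted lines at 1.5 and -1.5. P0 Emcn+ against P0 Emcn- has 4 called genes above and 18 below, and P3 against P1 has 1, Lpl.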

How the data were processed

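Bulk RNA-seq was made with the KAPA RNA HyperPrep kit. Per the methods, the authors aligned reads to GRCm38 with STAR, quantified Ensembl transcripts with Salmon through the nf-core pipeline and summed them to genes with tximport. The deposited values are whole-number counts per gene for 15 libraries, and how they were rounded is not stated. CPM was computed as counts over the library total. Of 44674 genes, 8 had no symbol (at most 0.00378% of a library's counts). Replicates of a group differed by more than sampling noise.

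The 7 members and the pathway and marker lists were chosen with earlier results of these data known. Members were compared by their values, with exact 95% counting intervals, without a test. Genes with at least 10 counts (filterByExpr, total of at least 15) entered edgeR 4.0.16 (R 4.3.3) with TMM factors and the quasi-likelihood test, fitted over all 15 libraries and 8 conditions, a call needing a log2 fold change beyond 1.5 in either direction and an adjusted p (Benjamini-Hochberg) under 0.05. The fit was tested on simulated data in which all genes had the same spread and only P0 Emcn+ differed. Only P0 Emcn+ against P0 Emcn- was read there, and the spread of the real replicates was not modelled. Named from the lists were up to 3 called genes per comparison and direction with at least 10 CPM in the higher group, the paralogs Fabp4, Lpl, Lipc and Meox1, and the 3 genes most correlated with each member. One gene that this rule names is not reported here. Replicate numbers pair the P0 and lung libraries by batch, and P1 to P3 likewise (same-batch deviations correlated at 0.136 to 0.343 and 0.543 to 0.728). Alternatives were DESeq2 1.42.0, RLE factors, other count filters, no fold limit, the compared groups alone, a replicate block and leaving out each library.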

Additional observations from a re-analysis of the deposited data

How the results depend on the processing

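With 2 libraries a group, 1 library can decide a member's ratio. Of the alternative values of the 36 member ratios, 225 moved by less than the spread, 38 moved by more and 2 reversed, namely Lipg in lung against P0 Emcn- (log2 0.39 without P0 Emcn- replicate 1, -2.95 without lung replicate 1) and Meox2 in lung against P0 Emcn+ (1.05 without P0 Emcn+ replicate 2, -2.45 without P0 Emcn+ replicate 1). A reversal was counted only where the main log2 ratio was beyond 1.5 in either direction. Smaller ratios also changed sign when 1 library was left out. Among them, against P0 Emcn-, were Lipg in BM MSC (-0.44, up to 1.74) and in P1 (-1.10, up to 1.08), and Cyp4b1 in P1 (-0.06, up to 1.34).

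Without the fold limit, 41 of 74 pathway genes passed for P0 Emcn+ against P0 Emcn-. Lung had 10 against P0 Emcn- and 44 against P0 Emcn+. BM MSC and P1 had 23 and 19 against P0 Emcn-, those of P1 being 11 higher and 8 lower. Of all 19401 genes, 6609 passed for P0 Emcn+ against P0 Emcn- and 7209 for lung against P0 Emcn+. BM MSC had 6853 and P1 3387. For lung against P0 Emcn- the count over all genes is not given, so its 10 is without a background. Fitted on the compared groups alone, lung against P0 Emcn- gave 0 pathway genes by edgeR (14 at an unadjusted p under 0.05) of 145 in all, BM MSC 7 of 2396, P1 1 of 968, and P3 against P1 153 genes in all. P3 against P1 gave 2 pathway genes of 303 with DESeq2, 2 of 170 without the count filter and 2 of 106 with the replicate block, against 1 of 43. The cause was not tested.

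Leaving out 1 library gave 19 to 23 pathway genes (3043 to 3733 in all) for P0 Emcn+ against P0 Emcn-, 3 to 5 (406 to 776, 406 without lung replicate 1 and 455 without P0 Emcn- replicate 1) for lung against P0 Emcn-, 19 to 20 (3303 to 4159) for lung against P0 Emcn+, 10 to 12 (2772 to 3653) for BM MSC, 1 to 6 (805 to 2196) for P1, the low ends without P1 replicate 1, and 0 to 1 (0 to 78) for P3 against P1, where 0 genes were called without P1 replicate 2 or P3 replicate 1 (1728 and 1265 at an unadjusted p under 0.05). In the other 5 comparisons the replicate block gave pathway counts of 22, 4, 20, 12 and 5, equal in total to those without it. The block uses the pairing by batch among P0 and lung libraries and, separately, among the others. BM MSC and P1 share no batch with P0 Emcn-, so in those comparisons it paired no library of one group with one of the other. The genes were not all the same, since lung against P0 Emcn+ had 14 higher and 6 lower and Cyp4f14 lost its call in BM MSC.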
